A study of Homo sapiens with 4 samples.

Results

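The genes described here carry the signal of leukaemia inhibitory factor (LIF) and its relatives, cytokines that act through the shared receptor chain gp130, together with *LCN2*, the gene of the iron-sequestering protein lipocalin 2. They were chosen by symbol, and all 9 were found among the 28278 genes of the count table and passed the filter on low counts: the ligand *LIF*, the receptor chains *LIFR*, *OSMR*, *IL6ST* and *IL6R*, the kinase *JAK1*, the transcription factor *STAT3*, the feedback inhibitor *SOCS3*, and *LCN2*. RNA was sequenced from cells labelled as the hepatocellular carcinoma line HepG2 that had been infected with lentivirus carrying Cas9 and either a control sgRNA (2 libraries) or a *USP22* sgRNA (2 libraries). Every library came from cells given 10 µM Sorafenib for 24 h, so the comparison is between genotypes under the drug, and cells without Sorafenib were not analysed here. The knockout population was made with a single sgRNA and kept by antibiotic selection, and the labels do not state whether the 2 libraries of a group came from separate cultures, so the p-values measure only the spread between these libraries, which may be technical.

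In this pathway, LIF binds LIFR, interleukin 6 binds IL6R and oncostatin M binds OSMR or LIFR, and each complex signals only with gp130, the product of *IL6ST*. The receptor tails hold Janus kinases, chiefly JAK1, which phosphorylate STAT3. STAT3 then enters the nucleus and turns on target genes, among them *SOCS3*, whose product shuts the receptor off. In the liver this route drives the acute phase response, the burst of secreted plasma proteins that follows injury. LIFR has also been tied to ferroptosis, the iron-dependent form of cell death, through NF-κB and *LCN2*, whose product withholds iron.

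Library totals ranged from 62030307 to 64728272 counts. The targeted gene was not lower in the libraries labelled *USP22* knockout: *USP22* had 16450 and 16537 counts in the controls and 20279 and 20368 in the knockout-labelled ones (log2 fold change 0.22, standard error 0.034, edgeR adjusted p = 0.000394), so every direction below follows the label. The protein was not measured in these files. The paper reports that Western blots of USP22 showed the knockout to be effective in its cell lines, HepG2 among them. The labelled cell type lacked most of its markers. Of 17 hepatocyte and liver cancer markers, 8 were listed at 0 in all 4 libraries (*ALB*, *APOA1* and *GPC3* among them), another 7, *AFP* and *HNF4A* among them, had at most 19 counts in any library, and only the keratin genes *KRT8* and *KRT18* were abundant. Of 10 leukocyte markers, 8 had at most 13 counts, *PTPRC* among them. *LYZ*, *CD3E* and *MPO* were among those at 0 in all 4 libraries. *CD68* and *CSF1R* passed the filter and were called lower. Levels are given in CPM, which are counts scaled to the library size by TMM factors. The summed level of these 10 genes was 76.7 and 76.9 CPM in control libraries and 48.0 and 45.1 CPM in knockout-labelled libraries. Most of this sum came from *CD68* alone, with 73.8 and 73.9 CPM against 46.8 and 43.9 CPM. Of 8 fibroblast and endothelial markers, *COL3A1* and *COL1A1* were abundant. In any library *COL1A2* had at most 7 counts, *PECAM1* 6, *VWF* 16 and *CDH5* 17, and *PDGFRA* had 0. *PDGFRB*, the one gene of this list that was called, fell from 548 and 551 counts to 324 and 266 (log2 fold change -0.98, edgeR adjusted p = 0.000211). The summed level of the list was 565 and 572 CPM against 639 and 637 CPM, most of it from *COL3A1*, with 499 and 508 CPM against 576 and 569 CPM. The part of these cells in the results below was not tested. In bulk RNA, fewer cells of a type and less RNA per cell cannot be told apart.

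Differences were tested with edgeR on all genes that passed the filter. A gene was called when its Benjamini-Hochberg adjusted p was below 0.05 and its fold change at least 1.5. Of the 15150 tested genes, 8.88% were called higher and 7.25% lower in the knockout-labelled libraries. Of the 9 genes, 1 was called higher (*IL6ST*) and 1 lower (*LIF*). Without the fold change threshold 3 were higher (*IL6ST*, *OSMR* and *SOCS3*) and 3 lower (*LIF*, *LIFR* and *JAK1*), where the background over all tested genes was 26.8% higher and 25.8% lower. The knockout-labelled libraries both lay above or both below the controls for 7 of the 9 genes (3 above, 4 below), where 75.9% of all tested genes did so, 38.3% above and 37.6% below. The median log2 fold change of the 9 genes was -0.0055, and that of all tested genes was 0.00091.

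**Figure D1:**
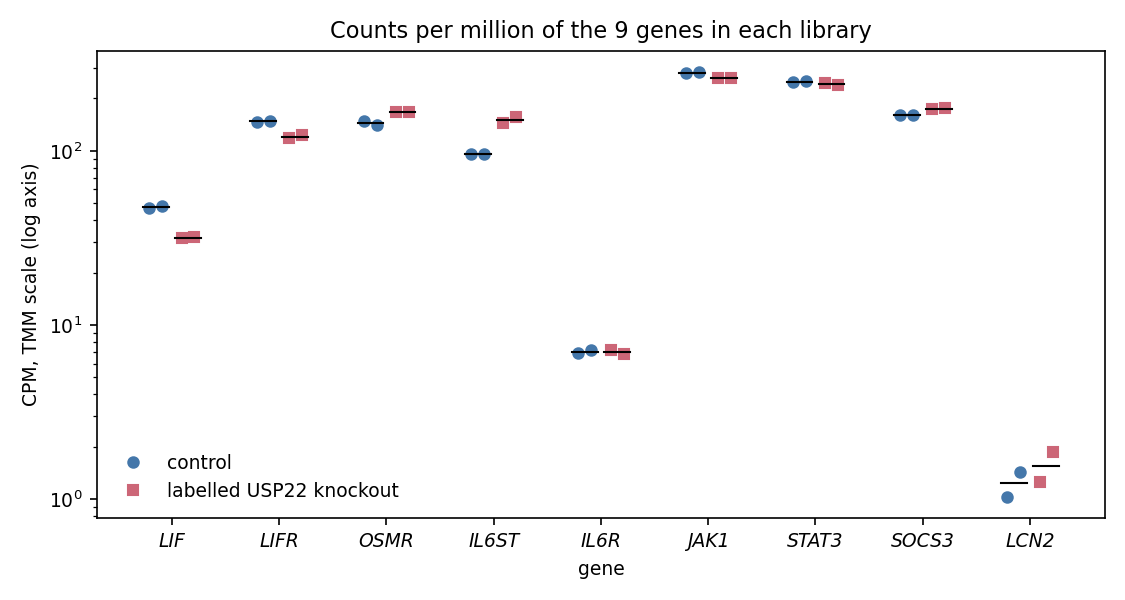
CPM on the TMM scale (log axis) of the 9 genes, with a point for each library (circles, control; squares, labelled *USP22* knockout) and a line at each mean of 2 libraries. *IL6ST* sat at 95.6 CPM in both control libraries and at 144 and 156 CPM in the knockout-labelled ones, while *LIF* and *LIFR* lay lower there and the *LCN2* libraries overlapped.

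Regions around start sites are shown for *LIFR*, *IL6ST* and *LCN2*, chosen because they hold one of the 2 motifs below or, for 1 window of *LIFR*, the start of an antisense gene. RefSeq (GRCh38.p14) gave windows for 8 of the 9 genes, 13 windows in all, each 300 bases long from 250 bases before to 50 bases after a start site. Each is written 5′ to 3′ on the strand of its gene. Capitals mark matches, on either strand, to the STAT motif TTCNNNGAA or to the κB motif bound by NF-κB.
*LIFR*, first start, chr5:38595356-38595655, minus strand: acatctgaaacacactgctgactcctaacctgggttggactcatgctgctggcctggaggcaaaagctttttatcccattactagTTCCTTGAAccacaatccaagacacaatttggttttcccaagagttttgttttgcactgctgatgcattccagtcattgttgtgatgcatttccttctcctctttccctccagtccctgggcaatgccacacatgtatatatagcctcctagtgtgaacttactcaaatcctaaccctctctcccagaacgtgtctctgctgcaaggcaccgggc
*LIFR*, second start, chr5:38557418-38557717, minus strand: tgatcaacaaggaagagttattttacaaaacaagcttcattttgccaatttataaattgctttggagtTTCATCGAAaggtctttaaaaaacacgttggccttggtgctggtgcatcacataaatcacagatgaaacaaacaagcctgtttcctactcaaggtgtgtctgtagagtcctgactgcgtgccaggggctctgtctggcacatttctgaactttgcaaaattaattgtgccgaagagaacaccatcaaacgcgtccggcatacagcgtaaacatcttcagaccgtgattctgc
*LIFR*, start beside *LIFR-AS1*, chr5:38556597-38556896, minus strand: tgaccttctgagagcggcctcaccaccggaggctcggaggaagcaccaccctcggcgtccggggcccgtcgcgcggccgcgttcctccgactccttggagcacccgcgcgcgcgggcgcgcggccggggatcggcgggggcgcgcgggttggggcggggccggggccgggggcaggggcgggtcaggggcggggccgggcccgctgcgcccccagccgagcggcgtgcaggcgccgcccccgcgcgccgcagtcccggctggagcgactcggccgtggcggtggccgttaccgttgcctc
*IL6ST*, chr5:55994914-55995213, minus strand: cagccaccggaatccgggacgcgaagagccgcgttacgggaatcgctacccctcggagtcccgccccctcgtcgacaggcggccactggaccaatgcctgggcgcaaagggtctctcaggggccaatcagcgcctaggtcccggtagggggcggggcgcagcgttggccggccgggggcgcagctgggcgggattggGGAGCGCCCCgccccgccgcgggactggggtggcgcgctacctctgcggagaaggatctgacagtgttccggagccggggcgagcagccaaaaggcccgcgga
*LCN2*, chr9:128149203-128149502, plus strand: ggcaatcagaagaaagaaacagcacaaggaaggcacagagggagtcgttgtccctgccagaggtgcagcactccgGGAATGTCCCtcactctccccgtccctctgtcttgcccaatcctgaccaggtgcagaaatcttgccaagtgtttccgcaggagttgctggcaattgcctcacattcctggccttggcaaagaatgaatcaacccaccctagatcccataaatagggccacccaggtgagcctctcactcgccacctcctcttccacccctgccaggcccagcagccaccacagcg

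The STAT motif was found in 2 of the 13 windows, both of *LIFR*, at 165 bases before the first start (TTCCTTGAA) and 182 bases before the second (TTCATCGAA). Over all 35116 RefSeq windows of this length, 7.66% held the motif. The κB motif was found 175 bases before the start of *LCN2* (GGAATGTCCC) and 53 bases before that of *IL6ST* (GGAGCGCCCC), and 11.3% of all windows held it. None of these matches overlapped another. The windows of the other genes, *OSMR* included, held neither motif and are not shown. A match describes the letters only, and the binding of a factor was not measured here. The third *LIFR* window, which held neither motif, is shown because the antisense gene *LIFR-AS1* begins in it, 119 bases from the *LIFR* start and on the other strand.

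Among the ligand and receptor genes, *IL6ST* and *LIF* changed in opposite directions. *LIF*, the ligand of LIFR (chromosome 22, 30240453 to 30246759, minus strand, hg38), had 46.9 and 48.5 CPM in control cells and 31.7 and 31.8 CPM in knockout-labelled cells. Both knockout-labelled libraries lay below both control libraries. The gene fell from a mean of 47.7 ± 1.14 CPM (SD, n = 2) to one of 31.8 ± 0.117 CPM (SD, n = 2), and the log2 fold change was -0.59 (standard error 0.055, 95% interval -0.71 to -0.46, edgeR adjusted p = 1.6e-05). This is just beyond the 1.5-fold threshold, and without control replicate 2 the log2 fold change was -0.56 and *LIF* was no longer called, nor was it with library size as the only scaling (-0.54) or after trends of fold change with transcript length and GC content were removed (the length and GC adjustment, -0.49).

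*IL6ST*, which encodes the shared signalling chain gp130 (chromosome 5, 55935095 to 55995022, minus strand), had 5829 and 5963 counts in controls and 9463 and 10047 in the knockout-labelled ones. The control libraries were nearly equal, and the knockout-labelled libraries differed from each other by less than from either control. It rose from a mean of 95.6 ± 0.00974 CPM (SD, n = 2) to one of 149.8 ± 8.22 CPM (SD, n = 2), 1.57-fold (log2 fold change 0.65, standard error 0.045, 95% interval 0.55 to 0.75, edgeR adjusted p = 2.37e-06). It was called in all 4 fits that left out 1 library. After the length and GC adjustment the log2 fold change was 0.30 (edgeR adjusted p = 0.000144), below 1.5-fold.

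*LIFR*, the receptor chain that binds LIF (chromosome 5, 38474668 to 38608354, minus strand), had 8961 and 9275 counts in controls and 7811 and 7912 in the knockout-labelled ones. The groups did not overlap, and the difference was small. It was lower by a log2 fold change of -0.29 (standard error 0.038, 95% interval -0.38 to -0.21, edgeR adjusted p = 0.000131), or 147.8 ± 1.21 (SD, n = 2) against 120.7 ± 2.61 (SD, n = 2) CPM, and was not called. After the length and GC adjustment it was called lower, at -0.65 (edgeR adjusted p = 5.77e-07). The canonical transcripts of *LIFR* and *IL6ST*, 10553 and 9027 bases, are the longest of the 9 genes and have the lowest GC content, 37.1% and 36.5%. The adjustment moved both downwards.

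*LIFR* shares a stretch of 51590 bases with *LIFR-AS1*, the antisense gene, which was named after its values were seen. *LIFR-AS1* had 165 and 126 counts in control libraries and 36 and 55 in knockout-labelled libraries. Both knockout-labelled libraries were low (log2 fold change -1.75, standard error 0.31, edgeR adjusted p = 0.00088). The strand setting of the counting is not given in the sources used here, so reads of *LIFR* and *LIFR-AS1* in the shared stretch cannot be told apart.

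*OSMR*, the oncostatin M receptor chain and the neighbour of *LIFR* on chromosome 5 (38845858 to 38945596, plus strand), had 149 and 141 CPM in control cells and 166 and 167 CPM in knockout-labelled cells. The groups did not overlap, and the log2 fold change was 0.20 (standard error 0.040, 95% interval 0.11 to 0.29, edgeR adjusted p = 0.00187), short of 1.5-fold. After the length and GC adjustment it was 0.095 (edgeR adjusted p = 0.0615). *IL6R*, the interleukin 6 binding chain (chromosome 1, 154405193 to 154469450, plus strand), was scarce in every library, with 418 and 449 counts in control and 470 and 442 in knockout-labelled cells. These overlapped. Its log2 fold change was -0.0055 with a 95% interval of -0.28 to 0.27 (edgeR adjusted p = 0.973), so a change of more than 1.5-fold lay outside the interval. The sign turned with library size as the only scaling (0.047), without control replicate 2 (0.030) and without knockout replicate 2 (0.025).

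**Figure D2:**
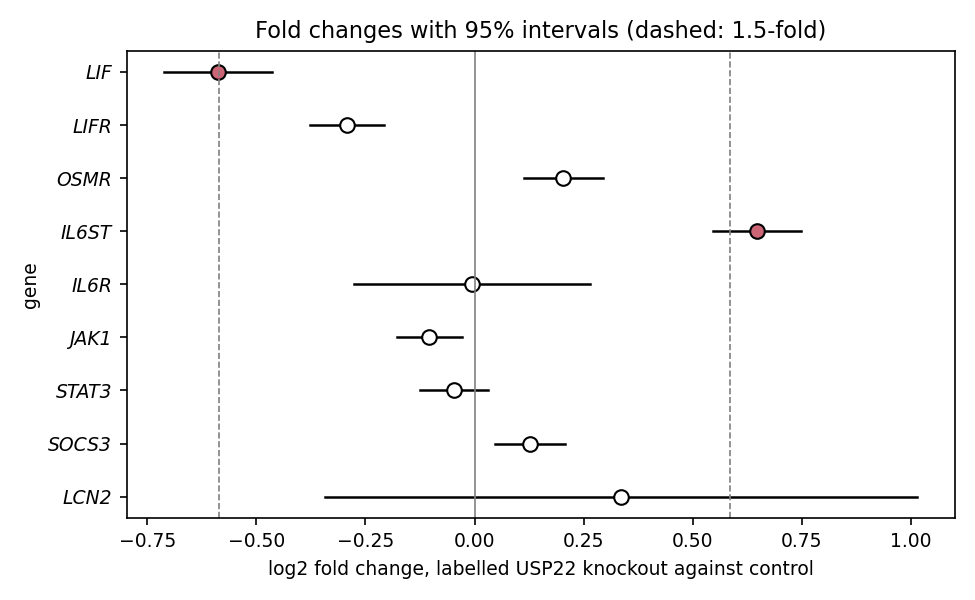
Log2 fold change (labelled *USP22* knockout against control, x axis) of each of the 9 genes with its 95% interval from edgeR, 2 libraries per group; filled points were called and dashed lines stand at 1.5-fold. *IL6ST* and *LIF* lay beyond the dashed lines on opposite sides, at 0.65 and -0.59, and *LCN2* had the widest interval, from -0.34 to 1.01.

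Because *IL6ST* and *LIFR* differed in sign, the balance of the receptor chains was computed within each library. This quantity was chosen after the values were seen and does not depend on library scaling. Per length of transcript, the ratio of *IL6ST* to *LIFR* was 0.76 and 0.752 in the control libraries and 1.42 and 1.48 in the knockout-labelled ones. *LIFR* was therefore the more abundant of this pair in both control libraries and *IL6ST* in both knockout-labelled libraries. The ratio was 1.92-fold higher in the latter, a log2 difference of 0.94, against an SD within groups of 0.012 and 0.048. An exact two-sided permutation test over the 4 libraries gave p = 0.333, the smallest value that 2 libraries against 2 allow. The log2 difference ran from 0.91 to 0.97 when single libraries were left out. It was 0.94 after the length and GC adjustment as well. That setting could hardly change this ratio, because both transcripts are close in length and GC content and were moved by similar amounts.

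The ratio of *OSMR* to *LIFR* per length was 1.93 and 1.81 in control and 2.67 and 2.61 in knockout-labelled libraries, and it was 1.41-fold higher in the latter (exact two-sided permutation p = 0.333). The ratio of *IL6ST* to *OSMR* went from 0.393 and 0.416 to 0.531 and 0.569, 1.36-fold higher (exact two-sided permutation p = 0.333). In both cases the groups did not overlap. After the length and GC adjustment the log2 difference of *OSMR* to *LIFR* went from 0.50 to 0.74 and that of *IL6ST* to *OSMR* from 0.44 to 0.20. The ratio of *LIF* to its receptor *LIFR* was 0.87 and 0.89 in control and 0.726 and 0.708 in knockout-labelled libraries, and this difference reversed after the length and GC adjustment, to 0.16 from -0.30 on the log2 scale.

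The genes of the signalling steps inside the cell differed little. *STAT3*, the transcription factor of the pathway (chromosome 17, 42313324 to 42388540, minus strand), had 248 and 250 CPM in control libraries and 244 and 238 CPM in knockout-labelled ones. Its log2 fold change was -0.047 (standard error 0.035, 95% interval -0.12 to 0.031, edgeR adjusted p = 0.292), with the sign turning to 0.0054 with library size as the only scaling. *JAK1*, the kinase held by gp130 (chromosome 1, 64833223 to 65067754, minus strand), had 279.5 and 283.6 CPM against 263 and 261 CPM, slightly lower in both knockout-labelled libraries (log2 fold change -0.10, standard error 0.034, edgeR adjusted p = 0.0259). *SOCS3*, the STAT3 target whose product blocks gp130 signalling (chromosome 17, 78356778 to 78360077, minus strand), had 9728 and 9963 counts in control libraries and 11372 and 11342 in knockout-labelled ones. It was higher in both knockout-labelled libraries by a log2 fold change of 0.13 (standard error 0.036, 95% interval 0.048 to 0.21, edgeR adjusted p = 0.0128). None of these 3 genes was called in any setting that kept the fold change threshold. The small differences of *JAK1* and *SOCS3* lost significance in part of the settings, *JAK1* with library size as the only scaling (edgeR adjusted p = 0.221), without control replicate 2 (0.101) and without knockout replicate 2 (0.103), and *SOCS3* without knockout replicate 2 (0.0627).

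*LCN2* (chromosome 9, 128149071 to 128153453, plus strand) was the lowest of the 9 genes in CPM. It had 63 and 89 counts in control libraries and 82 and 120 in knockout-labelled ones, or 1.03, 1.43, 1.25 and 1.86 CPM. The groups overlapped. The log2 fold change was 0.34 (standard error 0.30, edgeR adjusted p = 0.387). Its 95% interval, -0.34 to 1.01, holds both no change and a 1.5-fold rise, so neither was excluded. The log2 fold change was 0.020 without knockout replicate 2 and 0.59 without control replicate 2.

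Levels were compared between genes after division by the length of the canonical transcript (GENCODE v44). In control cells *SOCS3* led with 58.4 CPM per kb, followed by *JAK1* with 55.3, *STAT3* with 50.6, *OSMR* with 26.2, *LIFR* with 14.0, *LIF* with 12.3 and *IL6ST* with 10.6 CPM per kb. *LCN2* (1.5 CPM per kb) and *IL6R* (1.22 CPM per kb) came last, and in control cells the lower *LCN2* library (1.26) was barely above the higher *IL6R* library (1.25). In knockout-labelled cells the first 4 places were the same and the next 3 changed, with *IL6ST* at 16.6, *LIFR* at 11.4 and *LIF* at 8.2 CPM per kb. No neighbours in these orders overlapped, although the order rests on 1 transcript length per gene.

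By position, the tested genes starting within 1 Mb of each of the 9 genes were also examined. The median log2 fold change of the 11 neighbours of *IL6ST* was 0.044, and 1 was called higher and 1 lower. The 4 neighbours of *LIFR* had a median of 0.25, in the direction opposite to *LIFR* itself. They included *OSMR* (0.20) and the overlapping *LIFR-AS1* (-1.75), and 0 were called higher and 1 lower, *LIFR-AS1*. The 32 neighbours of *LIF* had a median of -0.016, and 2 were called higher and 2 lower. For *IL6ST*, the tested member with the largest absolute log2 fold change, the genes with the most similar profile over the 4 libraries (smallest Euclidean distance of centred log2 CPM) were *ZNF254* (distance 0.013), *ARHGEF4* (0.022) and *ZNF761* (0.025). *ARHGEF4* had 54.9 and 54.1 CPM in control and 82.5 and 87.8 CPM in knockout-labelled libraries.

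The rest of the pathway was described from 7 lists holding 92 further genes, of which 70 passed the filter. Of these 70, 7 were called higher and 8 lower, and their median log2 fold change was -0.085. As shares, these counts and the called counts of each list below stand beside the 8.88% called higher and 7.25% called lower of all tested genes.

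**Figure D3:**
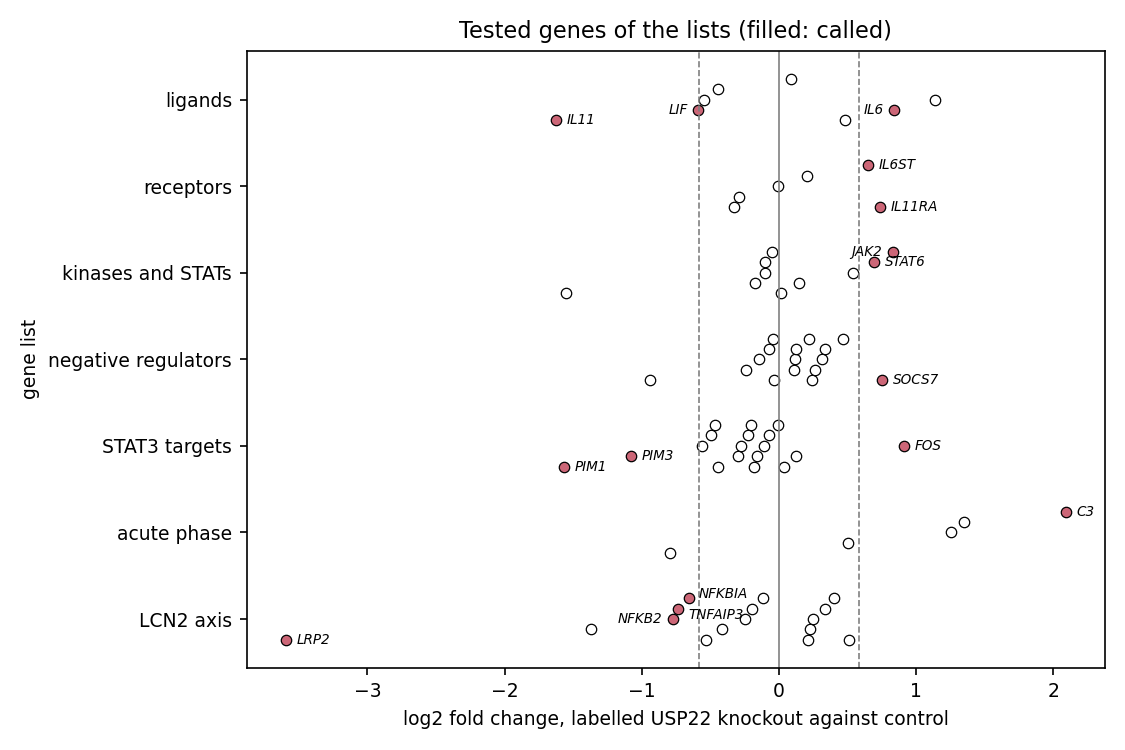
Log2 fold change (labelled *USP22* knockout against control, x axis) of the tested genes of the 7 lists that are reported here, with called genes filled and named and dashed lines at 1.5-fold; vertical offsets within a list only separate the points. The 4 called genes of the *LCN2* axis all lay on the lower side, and *C3* lay farthest on the higher side at 2.09.

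Among 11 ligand genes of the interleukin 6 family, 8 passed the filter, 1 was called higher and 2 lower. *IL6* had 167 and 250 counts in control libraries and 403 and 385 in knockout-labelled ones, and rose 1.79-fold (log2 fold change 0.84, standard error 0.19, edgeR adjusted p = 0.0039). The *IL6* log2 fold change depended on the control library kept, at 0.59 without control replicate 1 and 1.14 without control replicate 2. *IL11*, whose product also signals through gp130, fell from 266 and 230 counts to 92 and 78 (log2 fold change -1.62, standard error 0.20, edgeR adjusted p = 0.000109). With *LIF*, this made 2 gp130 ligands lower and 1 higher. The genes *OSM*, *IL27* and *IL31* were listed at 0 in all 4 libraries, so *OSMR* was present without transcripts of its ligand being listed. A count of 0 allows up to 3 counts, which is 0.0463 to 0.0484 CPM depending on the library, counting error only.

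Of 8 receptor genes, 6 passed the filter and 2 were called higher, *IL6ST* and *IL11RA*. *IL11RA*, the interleukin 11 binding chain, had 127 and 121 counts in control libraries and 229 and 208 in knockout-labelled ones (log2 fold change 0.74, standard error 0.19, edgeR adjusted p = 0.00777), and was not called without knockout replicate 1 (edgeR adjusted p = 0.0568). The ligand *IL11* was thus lower while both chains of its receptor, *IL11RA* and *IL6ST*, were higher.

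Among 11 kinase and STAT genes, all tested, 2 were called higher and 1 lower. *STAT6*, which acts downstream of interleukin 4, rose from a mean of 54.8 ± 1.07 CPM (SD, n = 2) to one of 88.8 ± 0.61 CPM (SD, n = 2) (log2 fold change 0.70, standard error 0.044, edgeR adjusted p = 1.29e-06). *JAK2* rose from a mean of 14.7 ± 0.799 CPM (SD, n = 2) to one of 26.1 ± 2.71 CPM (SD, n = 2) (log2 fold change 0.83, standard error 0.096, edgeR adjusted p = 6.22e-05), and after the length and GC adjustment it was at 0.52 and no longer called. *STAT3* is in the same list and, as given above, did not pass the test.

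Of 16 negative regulators, all tested, 1 was called higher, *SOCS7*, and 0 lower. *SOCS7*, a member of the SOCS family, went from 1610 and 1834 counts to 3109 and 3020 (log2 fold change 0.75, standard error 0.066, edgeR adjusted p = 1.04e-05). Without the fold change threshold 7 of the 16 were higher and 0 lower (*SOCS3*, *SOCS4*, *SOCS6*, *SOCS7*, *PIAS1*, *PIAS2* and *PIAS4*), against 26.8% and 25.8% of all tested genes, and the median log2 fold change of the list was 0.12. *PTPN6*, which encodes the phosphatase SHP1, had 7.66 ± 0.651 (SD, n = 2) CPM in control and 9.17 ± 0.0828 (SD, n = 2) CPM in knockout-labelled cells (log2 fold change 0.26, edgeR adjusted p = 0.089). It is given as the phosphatase placed between LIFR and NF-κB, outside the rule for named genes.

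Of 19 STAT3 target genes, 18 passed the filter, 1 was called higher and 2 lower, and their median log2 fold change was -0.21. The lower genes were *PIM1* and *PIM3*, kinases that promote survival and translation. *PIM1* had 470 and 477 CPM in control cells and 161 and 159 CPM in knockout-labelled cells, 2.96-fold lower (log2 fold change -1.56, standard error 0.034, edgeR adjusted p = 1.75e-09). *PIM3* had 433 and 453 CPM against 211 and 208 CPM (log2 fold change -1.08, standard error 0.036, edgeR adjusted p = 2.87e-08). The higher gene was *FOS*, an AP-1 component that many other signals also induce, with 46.2 and 43.6 CPM against 84.5 and 84.9 CPM (log2 fold change 0.92, standard error 0.048, edgeR adjusted p = 4.68e-07). Without the fold change threshold 2 of the 18 were higher and 12 lower, against 26.8% and 25.8% of all tested genes. *SOCS3* was thus on the other side from *PIM1* and *PIM3* although all 3 are STAT3 targets.

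Of 20 acute phase genes, 10 were listed at 0 in all 4 libraries, among them *CRP*, *FGA* and *HP*, and 15 did not pass the filter, with at most 11 counts in any library. The acute phase genes of hepatocytes were thus mostly at or near 0, as were the hepatocyte markers. The gene called among the 5 tested was *C3*, which encodes the central complement component. It had 1646 and 1697 counts in control libraries and 7711 and 7346 in knockout-labelled libraries, 4.26-fold higher (log2 fold change 2.09, standard error 0.047, edgeR adjusted p = 1.85e-09).

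In the list around *LCN2*, which held NF-κB genes, its receptors and its partner *MMP9*, 16 of 17 genes passed the filter. Of these, 0 were called higher and 4 lower, and the median log2 fold change was -0.22. Without the fold change threshold 4 of the 16 were higher and 8 lower, against 26.8% and 25.8% of all tested genes. *NFKBIA* and *TNFAIP3*, feedback inhibitors that NF-κB itself induces, fell from 171.2 ± 3.31 (SD, n = 2) to 108.5 ± 6.53 (SD, n = 2) CPM and from 151.0 ± 0.585 (SD, n = 2) to 90.5 ± 3.11 (SD, n = 2) CPM. Their log2 fold changes were -0.66 (edgeR adjusted p = 2.6e-06) and -0.74 (edgeR adjusted p = 5.7e-07), and *NFKBIA* was no longer called after the length and GC adjustment (-0.52). *NFKB2*, an NF-κB subunit gene, had 130 and 132 CPM against 76.4 and 77.0 CPM (log2 fold change -0.77, standard error 0.039, edgeR adjusted p = 3.53e-07). It lies on chromosome 10, where the 32 tested genes within 1 Mb had a median of -0.47 on the log2 scale and 10 of them were called lower, and the part of this region in the *NFKB2* difference was not tested. *LRP2*, the gene of the lipocalin 2 receptor megalin, had 66 and 63 counts in control libraries and 0 and 11 in knockout-labelled libraries (edgeR adjusted p = 0.00431). Its fitted log2 fold change, -3.60, depended on the knockout-labelled library kept, from -2.62 without replicate 1 to -9.05 without replicate 2, and DESeq2 did not call it (adjusted p = 0.165). *LCN2* itself did not pass the test, as described above.

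**Figure D4:**
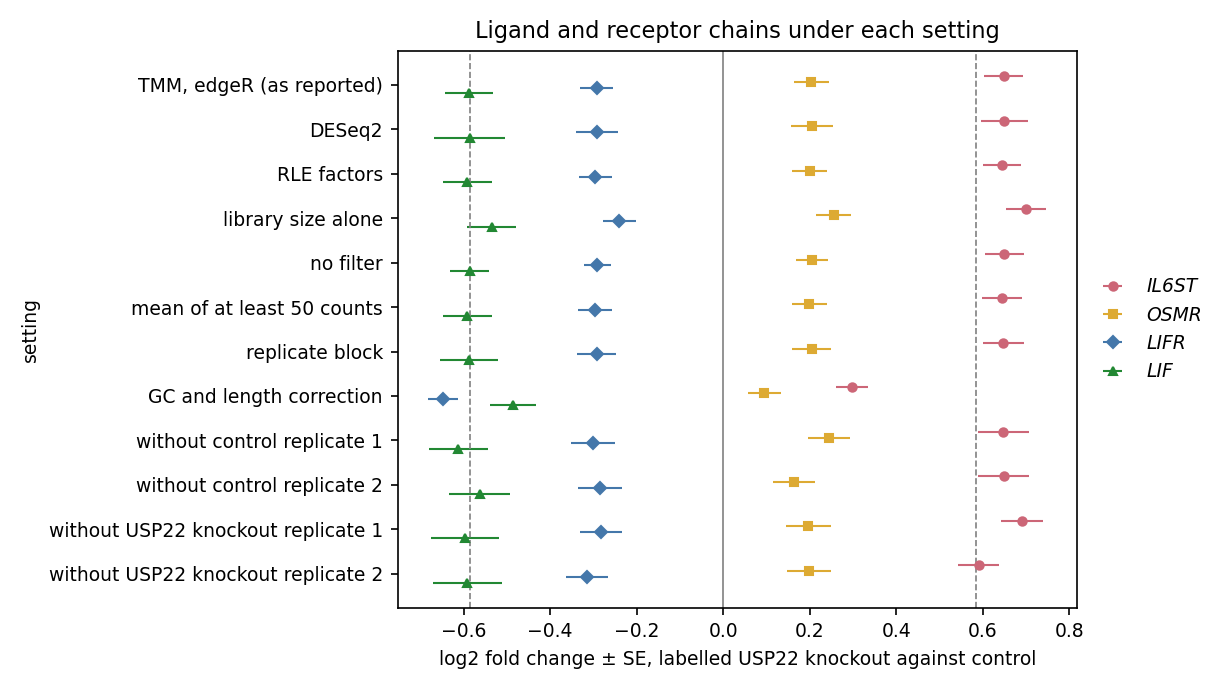
Log2 fold change with its standard error (labelled *USP22* knockout against control, x axis) of *IL6ST*, *OSMR*, *LIFR* and *LIF* under each setting (y axis); dashed lines stand at 1.5-fold. The 4 genes kept their signs throughout, and the length and GC adjustment moved *LIFR* to -0.65 and *IL6ST* to 0.30.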

How the data were processed

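RNA was measured in 4 libraries of Sorafenib-treated cells labelled HepG2, 2 control and 2 labelled *USP22* knockout, grouped by their titles. Per the study's methods and the submitters' processing notes, reads were aligned by the authors with HISAT2 2.2.1 (build hg38), and the authors deposited whole-number gene counts from StringTie 2.2.1, not divided by library size. Annotation, read length and strand setting are not given in the sources used here. StringTie derives counts from coverage.

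Tests used edgeR 4.0.16 under R 4.3.3 (TMM factors, filterByExpr with a minimum count of 10, glmQLFit, glmQLFTest, Benjamini-Hochberg adjustment over 15150 genes). Standard errors come from the size of the log2 fold change over the root of the F statistic, and SDs are between 2 libraries. DESeq2 1.42.0, the tool of the study, was an alternative, as were a replicate block, RLE factors, scaling by library size alone, omission of the filter, a filter at a mean of 50 counts, leaving out each library, and removal of lowess trends (span 0.3) on GC content and transcript length. Of the tested genes, 14384 had both values in GENCODE v44, all 9 members among them, and the others were left uncorrected. The procedures were tested on simulated data.

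The members and lists were chosen with earlier results of these data known. Named were *USP22*, the 9 members, the called genes of each list (at most 4), and the 3 profiles nearest to the member with the largest change. Some genes of the pathway and marker lists, counted in the totals, are not reported here by name or value. Genes named outside this rule are said to be so or come from the marker lists.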

Additional observations from a re-analysis of the deposited data

How the results depend on the processing

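The counts of called genes over the whole table (1345 higher, 1098 lower) stayed within 1.5 times under every setting except the one without the fold change threshold, where 4057 were higher and 3904 lower. That setting also gave 3 higher and 3 lower of the 9 members and 18 higher and 26 lower of the other pathway genes (7 and 8 with the threshold). Of 99 member values under other settings, 90 kept their direction and side of the thresholds. With the length and GC adjustment 0 members were called higher, since *IL6ST* dropped out, and *LIFR* took the place of *LIF* as the 1 called lower. With library size alone 0 were called lower. In the fits without 1 library, where the lone library is assumed to vary like the other group, the members called lower ranged from 0 to 1 and those called higher stayed at 1. *IL6R* changed sign with library size alone (0.047) and ranged from -0.050 to 0.030 across the fits without 1 library. *STAT3* changed sign with library size alone (0.0054), and the difference of *LIF* to *LIFR* after the GC and length correction (0.16). Beyond the removed trends, the cause was not tested. The replicate numbers share only a number (correlation of same-numbered deviations 0.042), and fitting the replicate block gave 1341 higher and 1100 lower genes and no member's call changed. Of the 9 members, *LCN2* had the fewest counts, 63 to 120, and the widest interval.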
